A study of Mus musculus with 6 samples.

Results

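Sinusoidal endothelial cells line the blood channels of the liver, and 10 of their marker genes were followed in livers that carried FXR-WT or Y67F-FXR in hepatocytes. The genes were Stab1, Stab2, Lyve1, Clec4g, Pecam1, Kdr, Fcgr2b, Oit3, Mrc1 and Bmp2, taken by name from the 23284 genes of the count files, and all 10 were present and passed the filter on low counts. The rule that chose them used their names as endothelial markers and no measured value, though earlier results of these data were known when they were chosen. The question was whether the 3 Y67F-FXR livers held a different amount of endothelial RNA from the 3 FXR-WT livers.

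All 6 livers came from male FXR-floxed mice that were injected at 8 weeks of age with AAV8 carrying Cre recombinase under the TBG promoter, so that the controls also lacked the floxed mouse FXR in cells that received Cre. Another AAV8-TBG vector brought FXR-WT or the mutant Y67F-FXR, in which a tyrosine is replaced by phenylalanine. After 4 weeks the mice ate chow containing 0.5% cholic acid (CA) for 6 h before the livers were taken, CA being a bile acid that activates FXR. The TBG promoter is active in hepatocytes, and each library is from the RNA of a whole liver sample in which hepatocytes dominate.

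The sinusoidal endothelium is a thin, perforated layer without a continuous basement membrane. Its cells clear modified proteins, hyaluronan and small immune complexes from the blood through scavenger and Fc receptors. They also respond to vascular endothelial growth factor (VEGF) made by hepatocytes and release BMP and Wnt ligands that act back on hepatocytes.

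The libraries held 19551113 to 22053320 counted reads, and TMM factors ranged from 0.938 to 1.05. Nr1h4, the mouse FXR gene, had between 152 and 209 CPM (counts per 1e+06 reads counted, scaled by TMM factors) in the 6 livers, and its counts were not separated into transcripts of the mouse gene and of the vector, so they do not check the labels. The paper describes its flag-tagged FXR as human and does not name the species of the FXR in the AAV8 vectors. How far vector reads were counted on the mouse gene was not tested. Libraries of the same group differed in how they recovered short and long genes. In the shortest 20% of tested genes (median length 1152 bp), the median log2 deviation from the gene mean was 0.20 for FXR-WT replicate 1 and 0.22 for Y67F-FXR replicate 2. It was -0.18 for FXR-WT replicate 3 and -0.20 for Y67F-FXR replicate 1. The labelled tissue carried its defining markers, with Alb, the albumin gene, at 71272 ± 1641 CPM in FXR-WT and 71774 ± 4471 CPM in Y67F-FXR livers (SD, n = 3 each).

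The summed level of the 10 endothelial markers was nearly the same in the groups. It was 306, 314 and 279 CPM in FXR-WT replicates 1 to 3, and 298, 303 and 296 CPM in Y67F-FXR replicates 1 to 3. The means were 299.6 ± 18.6 CPM in FXR-WT and 298.9 ± 3.38 CPM in Y67F-FXR livers (SD, n = 3 each), and the FXR-WT range enclosed the Y67F-FXR range on both sides. In a whole liver sample, fewer cells of a type and less RNA per cell cannot be told apart, so these values describe marker RNA and not cell number. The sum includes Mrc1, Fcgr2b and Pecam1, which other cells also make, so it is not of endothelial RNA alone.

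No marker was called between the groups by edgeR's quasi-likelihood test, where a call needed a Benjamini-Hochberg adjusted p under 0.05 over all 12453 tested genes and a fold change over 1.5. The same rule called 0.972% of all tested genes, 0.546% as higher and 0.426% as lower. DESeq2 also called 0 of the 10. Without adjustment, 1 of the 10 (Lyve1) had a p under 0.05 with either tool, against 13.4% of all tested genes with edgeR, of which those fitted lower made up 6.67% and those fitted higher 6.75% of the tested genes. The fitted value was higher in Y67F-FXR livers for 6 markers and lower for 4, and the median log2 fold change was 0.032, against 0.012 over all tested genes. Scaled by library totals only, 4 markers were fitted higher and 6 lower. These p-values measure the spread between the livers of a group.

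**Figure D1:**
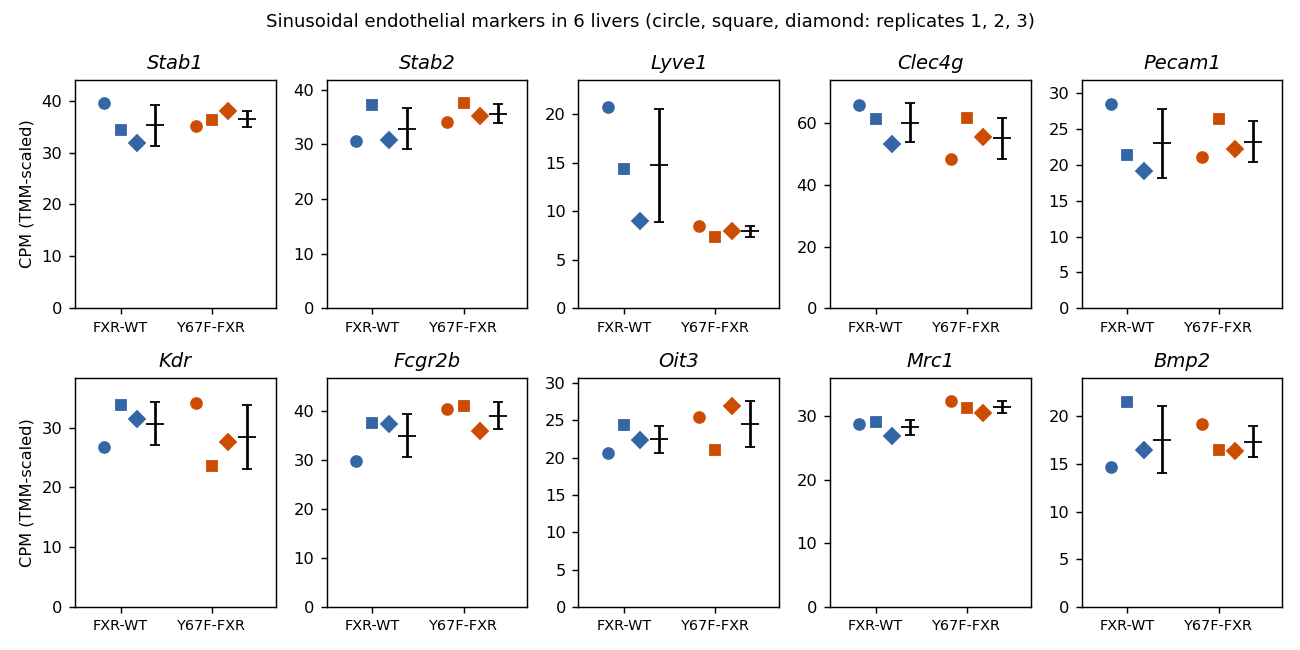
Level of each marker in every liver, in CPM scaled by TMM factors on a linear axis from 0, with FXR-WT in blue and Y67F-FXR in orange and circles, squares and diamonds for replicates 1, 2 and 3. Black bars show the mean and SD of 3 livers; Lyve1 lies below the FXR-WT livers in all 3 Y67F-FXR livers, Mrc1 lies slightly above them, and the groups overlap in the other 8 markers.

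Among the scavenger receptors, Stab1 and Stab2 encode stabilin-1 and stabilin-2, large multidomain receptors, of which stabilin-2 is a main route of hyaluronan clearance in the liver. Stab2 (chromosome 10 of mm9, 86303955 to 86470687, minus strand) had 30.5, 37.1 and 30.7 CPM in FXR-WT replicates 1 to 3 and 34.1, 37.6 and 35.2 CPM in Y67F-FXR replicates 1 to 3. FXR-WT replicate 2 lay among the Y67F-FXR livers, and the other FXR-WT livers lay below them. The log2 fold change was 0.12 (standard error 0.127), with an edgeR quasi-likelihood Benjamini-Hochberg adjusted p of 0.769. Stab1 (chromosome 14, 31952203 to 31981827, minus strand) had 39.6, 34.3 and 31.8 CPM in FXR-WT and 35.1, 36.2 and 38.0 CPM in Y67F-FXR livers. The 3 Y67F-FXR values lay inside the FXR-WT range, and the log2 fold change was 0.049 (standard error 0.125). Its exons share bases with those of Nt5dc2, and reads on both genes were not counted, so its level is uncertain.

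Lyve1 (chromosome 7, 117994121 to 118006467, minus strand) encodes a hyaluronan receptor shared by sinusoidal and lymphatic endothelium, and it was the marker with the widest gap between groups. FXR-WT livers had 20.8, 14.4 and 9.07 CPM in replicates 1 to 3, and Y67F-FXR livers had 8.45, 7.36 and 8.02 CPM. Every Y67F-FXR liver lay below every FXR-WT liver, but FXR-WT replicate 3 was closer to the Y67F-FXR livers than to FXR-WT replicate 2. The means were 14.7 ± 5.86 and 7.94 ± 0.549 CPM (SD, n = 3 each), so that the SD was 39.7% of the mean in FXR-WT and 6.92% in Y67F-FXR livers. The log2 fold change was -0.89 (standard error 0.279, 95% interval -1.53 to -0.24), and edgeR's quasi-likelihood test gave an unadjusted p of 0.0130 and a Benjamini-Hochberg adjusted p of 0.211, so it did not pass the threshold. With DESeq2 the adjusted p was 0.0668, and over all alternatives it ran from 0.0668 to 0.477. Without FXR-WT replicate 1, the liver with the highest Lyve1, the log2 fold change was -0.56 and edgeR's adjusted p was 0.356.

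The number of reads on Lyve1 was 425, 297 and 210 in FXR-WT and 174, 135 and 168 in Y67F-FXR livers, the lowest of the 10 markers in every liver but FXR-WT replicate 1. Of the 3 genes of a lymphatic list, 1 was tested. Ccl21a, the chemokine of lymphatic vessels, was listed at 0 in all 6 livers and Mmrn1, which encodes a secreted vessel glycoprotein, did not pass the filter. Ccl21a shares exon bases with Gm1987, and reads on both were not counted. Pdpn, the membrane glycoprotein podoplanin, had 0.466 ± 0.120 CPM in FXR-WT and 0.378 ± 0.158 CPM in Y67F-FXR livers (SD, n = 3 each), which overlapped.

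Mrc1 (chromosome 2, 14151041 to 14253650, plus strand) encodes the mannose receptor, which takes up glycoproteins and collagen fragments and is also made by macrophages. It had 28.8, 29.1 and 26.9 CPM in FXR-WT and 32.5, 31.4 and 30.5 CPM in Y67F-FXR livers. All 3 Y67F-FXR livers lay above the FXR-WT livers, and the log2 difference was 0.15 (standard error 0.109, 95% interval -0.098 to 0.40) with an edgeR quasi-likelihood Benjamini-Hochberg adjusted p of 0.636. Mrc1 also had the smallest spread between livers of one group, with an SD of 4.24% of the mean in FXR-WT and 3.13% in Y67F-FXR livers. Lyve1 and Mrc1 were the 2 of 10 markers whose groups did not overlap, in opposite directions, and groups did not overlap in 20.6% of all tested genes, 10.5% lower and 10.2% higher.

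Fcgr2b (chromosome 1, 172890689 to 172906202, minus strand) encodes an inhibitory Fc receptor that removes small immune complexes in the sinusoid and is also found on B cells and macrophages. It had 29.8, 37.5 and 37.3 CPM in FXR-WT and 40.2, 41.0 and 35.8 CPM in Y67F-FXR livers. FXR-WT replicate 1 was the lowest liver, and Y67F-FXR replicate 3 lay among the FXR-WT livers. The log2 difference for Fcgr2b was 0.16 (standard error 0.136), with an edgeR quasi-likelihood Benjamini-Hochberg adjusted p of 0.697, and 0.055 without FXR-WT replicate 1.

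The cells that share these receptors were measured by their own lists. The summed level of 13 Kupffer cell and macrophage markers ran from 299.8 to 451 CPM in FXR-WT and from 247 to 654 CPM in Y67F-FXR livers, with the highest value in Y67F-FXR replicate 2. Mrc1 in that liver, at 31.4 CPM, lay between the other Y67F-FXR livers, while Fcgr2b, at 41.0 CPM, was the highest of the 6. Of the B cell markers, Cd79b had 2.88, 1.89 and 1.42 CPM in FXR-WT and 1.36, 3.82 and 1.72 CPM in Y67F-FXR livers, again highest in Y67F-FXR replicate 2, and Ms4a1 did not pass the filter. The part of these cells in Mrc1 and Fcgr2b was not tested.

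Clec4g (chromosome 8, 3716071 to 3720651, minus strand) encodes the C-type lectin LSECtin, which is concentrated on sinusoidal cells of liver and lymph node. It had 65.7, 61.2 and 53.3 CPM in FXR-WT and 48.3, 61.6 and 55.3 CPM in Y67F-FXR livers. The groups overlapped, with Y67F-FXR replicate 1 lowest and FXR-WT replicate 1 highest, and the log2 fold change was -0.13 (standard error 0.140, edgeR quasi-likelihood Benjamini-Hochberg adjusted p = 0.780). Oit3 (chromosome 10, 58885708 to 58904527, minus strand), whose product carries a zona pellucida domain, had 20.6, 24.3 and 22.4 CPM in FXR-WT and 25.5, 21.0 and 26.9 CPM in Y67F-FXR livers. Y67F-FXR replicate 2 lay among the FXR-WT livers and the other Y67F-FXR livers lay above them, and the log2 fold change was 0.12 (standard error 0.140).

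Pecam1 (chromosome 11, 106515532 to 106576595, minus strand) encodes the adhesion molecule CD31 of all endothelium and of platelets. It had 28.4, 21.3 and 19.2 CPM in FXR-WT and 21.0, 26.4 and 22.2 CPM in Y67F-FXR livers. The Y67F-FXR values lay inside the FXR-WT range, and the log2 fold change of 0.014 (standard error 0.177) changed sign when libraries were scaled by their totals only. The summed level of 4 platelet markers was 4.14 to 5.67 CPM in FXR-WT and 4.47 to 8.02 CPM in Y67F-FXR livers, and the part of platelets in Pecam1 was not tested. The median log2 fold change of the 3 tested ones was 0.29, and it was -0.11 without Y67F-FXR replicate 2.

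Kdr (chromosome 5, 76329299 to 76374453, minus strand) encodes VEGF receptor 2, the main signalling receptor for VEGF-A on endothelium. It had 26.7, 33.8 and 31.5 CPM in FXR-WT and 34.2, 23.6 and 27.7 CPM in Y67F-FXR livers. Y67F-FXR livers were both the highest and the lowest of the 6, and the log2 fold change was -0.11 (standard error 0.167, edgeR quasi-likelihood Benjamini-Hochberg adjusted p = 0.863).

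Bmp2 (chromosome 2, 133378935 to 133388621, plus strand) encodes a BMP ligand that sinusoidal cells release and that acts on hepatocytes to raise hepcidin. It had 14.7, 21.5 and 16.5 CPM in FXR-WT and 19.2, 16.5 and 16.3 CPM in Y67F-FXR livers. The Y67F-FXR values lay inside the FXR-WT range, and the log2 difference was -0.017 (standard error 0.170).

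The intervals set how large a group difference could have gone unseen. For 9 of the 10 markers, all but Lyve1, the 95% interval of the fold change lay within 1.5-fold in either direction, and the widest bounds of these 9 were 0.711-fold and 1.39-fold. Such an interval was found for 38.6% of all tested genes and for 13 of 52 other endothelial genes. The fitted fold changes of the 9 markers ran from 0.917 to 1.12, and their edgeR quasi-likelihood Benjamini-Hochberg adjusted p from 0.636 to 0.988.

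**Figure D2:**
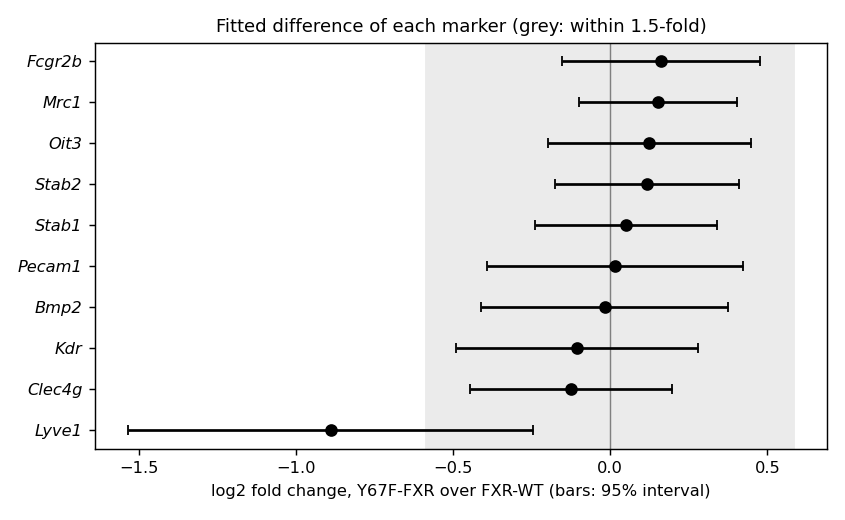
Fitted log2 fold change of each marker, Y67F-FXR over FXR-WT, from edgeR's quasi-likelihood fit of 6 livers, with 95% intervals as bars and a grey band for changes within 1.5-fold. The intervals of 9 markers lie inside the band and cross 0, and that of Lyve1 runs from -1.53 to -0.24.

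In each of the 6 livers some markers lay above and others below their gene means. FXR-WT replicate 1 was the highest of the 6 livers for Stab1, Lyve1, Clec4g and Pecam1 and the lowest for Stab2, Fcgr2b, Oit3 and Bmp2. FXR-WT replicate 3 was the lowest for Stab1, Pecam1 and Mrc1 and the highest for none of the 10. The median deviation of the 10 markers from their gene means was between -0.13 and 0.077 on the log2 scale in the 6 livers. Deviations of single markers reached 0.97 for Lyve1 in FXR-WT replicate 1 and -0.51 for Lyve1 in Y67F-FXR replicate 2. Outside Lyve1, Kdr in Y67F-FXR replicate 2, Pecam1 in FXR-WT replicate 1 and Bmp2 in FXR-WT replicate 2 stood farthest out, at -0.31, 0.31 and 0.31.

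**Figure D3:**
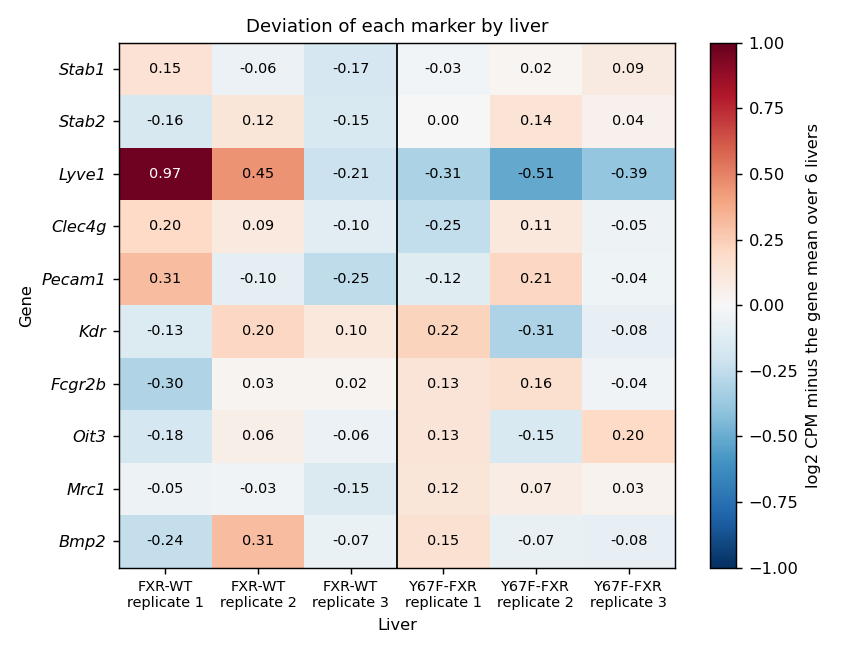
Deviation of each marker (log2 CPM) from its mean over the 6 livers, with livers in columns and a black line between FXR-WT and Y67F-FXR. Red is above and blue is below the gene mean; Lyve1 spans 0.97 to -0.51, and no liver is above or below the mean for all 10 markers.

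Gene length differs among the markers, and Stab1, Stab2, Kdr and Mrc1 are in the longest 20% of tested genes and Clec4g and Fcgr2b in the shortest 20%. Of the 4 long markers, Stab1 was the highest of the 6 livers in FXR-WT replicate 1 and Stab2 the lowest, and Stab2 was the highest and Kdr the lowest in Y67F-FXR replicate 2. Of the short markers, Clec4g was the highest and Fcgr2b the lowest in FXR-WT replicate 1, and Fcgr2b was the highest in Y67F-FXR replicate 2. The part of gene length in the spread of the markers was not tested. With offsets for gene length in the fit, the log2 fold change of Kdr was -0.12 and that of Clec4g -0.13, and Lyve1 had -0.88 with an edgeR quasi-likelihood Benjamini-Hochberg adjusted p of 0.148.

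Compared per length, as RPKM (CPM divided by exon length in kilobases), the order of the markers was led by the lectin. Clec4g was highest at 46.6 ± 5.19 RPKM and Fcgr2b next at 23.9 ± 2.59 RPKM (SD over n = 6 livers). The rest lay from 8.63 ± 0.929 RPKM for Oit3, through 6.98 for Pecam1, 6.93 for Bmp2, 5.61 for Mrc1, 5.43 for Kdr, 4.48 for Stab1 and 4.35 for Lyve1, to 4.20 ± 0.374 RPKM for Stab2. Clec4g exceeded Fcgr2b, Fcgr2b exceeded Oit3 and Bmp2 exceeded Mrc1 in 6 of 6 livers, each with an exact two-sided sign-flip permutation p of 0.0313 and an adjusted p of 0.0938 over 9 neighbouring pairs. That p is the smallest 6 livers can give, and none of the 9 pairs passed after adjustment. The order that set the pairs was taken from the same 6 livers, so these p-values are not an independent check of it. The other 6 neighbouring pairs changed order between livers and did not differ beyond their spread. FXR-WT and Y67F-FXR livers kept Clec4g and Fcgr2b at the top, while Lyve1 had 5.66 RPKM in FXR-WT livers, above Mrc1 at 5.32, and 3.05 RPKM in Y67F-FXR livers, below the other 9 markers, a difference that did not pass the test given above.

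**Figure D4:**
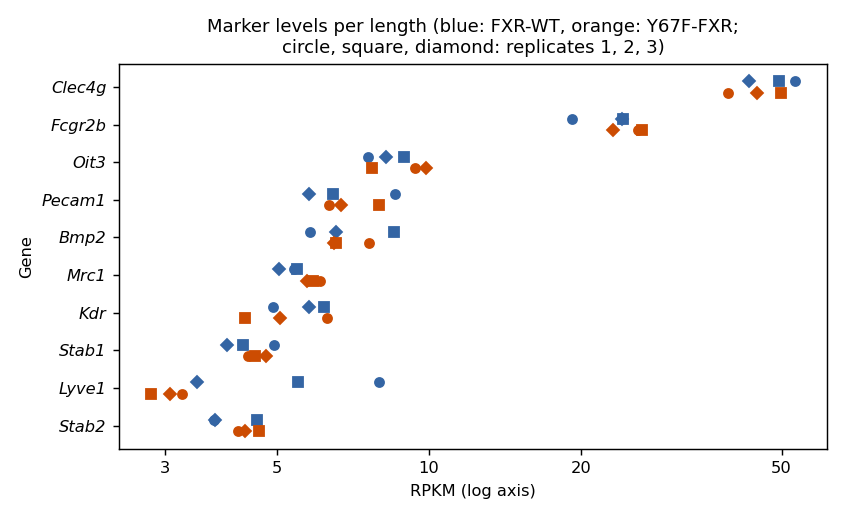
Level of each marker per exon length (RPKM, log axis) in 6 livers, FXR-WT in blue and Y67F-FXR in orange, ordered by the mean over livers. Clec4g and Fcgr2b stand above the rest, with means of 46.6 and 23.9 RPKM, and the next 8 markers overlap with their neighbours.

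Genes of the same cells outside the 10 markers were read from further lists. Of 56 endothelial genes, 52 passed the filter, of which 26 were fitted higher and 26 lower with Y67F-FXR (median log2 fold change -0.011). None was called by edgeR's quasi-likelihood test or by DESeq2, and 6 of the 52 had an unadjusted p under 0.05 with edgeR and 5 with DESeq2, against 13.4% of all tested genes with edgeR. For 8 of the 52 genes the groups were apart, 5 lower and 3 higher, against 20.6% of all tested genes.

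Other sinusoidal genes went in both directions. Flt4, which encodes VEGF receptor 3, had 34.5, 32.5 and 31.8 CPM in FXR-WT and 27.9, 27.5 and 24.8 CPM in Y67F-FXR livers, a log2 fold change of -0.30 (edgeR quasi-likelihood unadjusted p = 0.0301, Benjamini-Hochberg adjusted p = 0.302). Gata4, the transcription factor that maintains sinusoidal identity, had 21.5 ± 1.94 CPM in FXR-WT and 17.1 ± 1.98 CPM in Y67F-FXR livers (log2 fold change -0.34, adjusted p = 0.351 from the same test). Dnase1l3, a secreted nuclease, had 44.5, 55.5 and 52.0 CPM in FXR-WT and 62.0, 65.1 and 62.0 CPM in Y67F-FXR livers, a log2 difference of 0.32 (adjusted p = 0.320 from the same test). None of these 3 passed the threshold. Their groups were apart, and Ehd3, a membrane trafficking gene at a log2 fold change of -0.17, was the only other of the 9 tested genes with groups apart, so that these made up 44.4% of the list against 20.6% of all tested genes. Cd209b did not pass the filter. The list median was 0.064 (log2 fold change) and ran from -0.15 to 0.14 when a liver was left out, and the summed level was 220 to 231 CPM in FXR-WT and 213 to 219 CPM in Y67F-FXR livers.

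Among the 28 general endothelial genes 17 were fitted lower, and the median of the 28 on the log2 scale was -0.066. Leaving out a liver gave from -0.17 (without Y67F-FXR replicate 2) to -0.0072 (without Y67F-FXR replicate 1) for that median. S1pr1, the receptor for sphingosine 1-phosphate that keeps vessels quiescent, had 41.3, 45.8 and 46.7 CPM in FXR-WT and 36.3, 24.8 and 34.5 CPM in Y67F-FXR livers (log2 fold change -0.48, edgeR quasi-likelihood Benjamini-Hochberg adjusted p = 0.243). Cd93 and Clec14a, lectin-like surface proteins of endothelium, had log2 fold changes of -0.54 and 0.41 (adjusted p = 0.255 and 0.276 from the same test). These 3 of the 28 genes, 10.7% of the list, had groups without overlap, against 20.6% of all tested genes. Cdh5, the VE-cadherin gene of endothelial junctions, had 18.2 ± 0.568 CPM in FXR-WT and 18.4 ± 0.598 CPM in Y67F-FXR livers (SD, n = 3 each), with a log2 fold change of 0.015, and was singled out after its values were seen.

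Endothelial cells of the liver lobule differ between the central vein, where they make Wnt ligands, and the portal side, where Notch ligands and ephrins mark them. Of 5 pericentral genes 4 were fitted higher, and of 4 periportal genes 2 were fitted higher and 2 lower. No gene of either set had an unadjusted p under 0.05 with edgeR or DESeq2. Wnt2 had 1.27, 2.52 and 2.50 CPM in FXR-WT and 2.72, 3.49 and 3.48 CPM in Y67F-FXR livers, a log2 fold change of 0.62 (edgeR quasi-likelihood Benjamini-Hochberg adjusted p = 0.427) that was 0.36 without FXR-WT replicate 1. The log2 fold changes of Dll4, a Notch ligand, and Efnb2, the ephrin-B2 gene, were -0.47 and -0.32, with overlapping groups. Without FXR-WT replicate 1 they were 0.046 and -0.099, and without Y67F-FXR replicate 2 Efnb2 was at -0.14. Dll4 shares exon bases with Gm14207, and reads on both were not counted. The difference between the 2 zones was not tested.

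Genes of larger vessels and of continuous capillaries, which rise when sinusoids lose their perforations, showed a median of 0.13 (log2 fold change) over 5 tested genes. This median was -0.13 without Y67F-FXR replicate 2 and -0.047 without FXR-WT replicate 3. It was 0.25 to 0.31 when any other liver was left out. Cd34, Ly6a and Edn1, which encode a sialomucin, a surface antigen and endothelin-1, had log2 fold changes of -0.35, 0.41 and 0.36 and overlapping groups. Without Y67F-FXR replicate 2, Ly6a was at -0.13 and Edn1 at -0.079, and without FXR-WT replicate 1 Cd34 was at -0.13. Cd34 shares exon bases with Gm16897, and reads on both were not counted. Aplnr did not pass the filter. The summed level of this list was 51.0 to 80.9 CPM in FXR-WT and 53.5 to 90.4 CPM in Y67F-FXR livers.

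**Figure D5:**
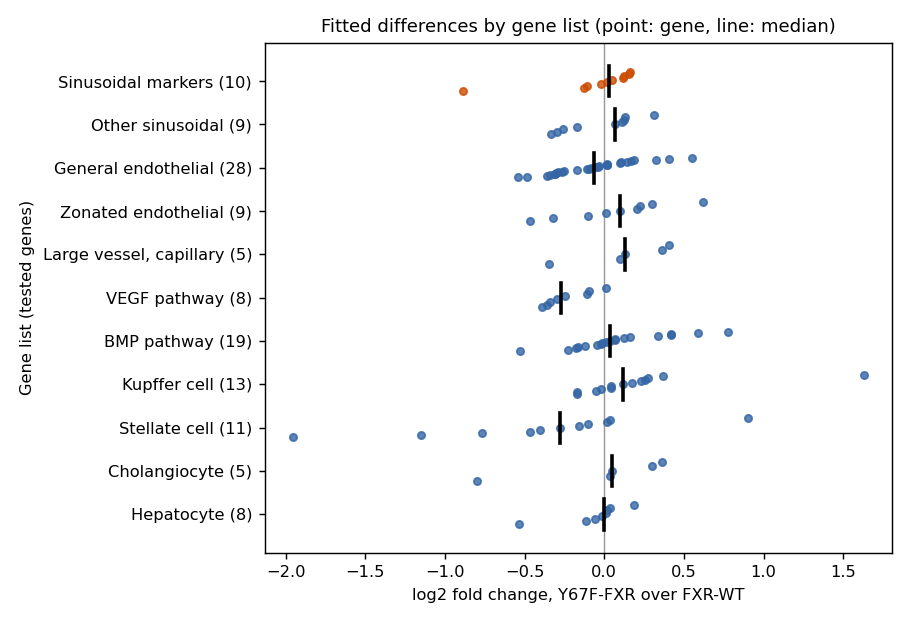
Fitted log2 fold change, Y67F-FXR over FXR-WT, of each tested gene in 11 lists, with points for genes, the 10 sinusoidal markers in orange and black lines for list medians. The medians lie between -0.28 and 0.13, and the list names give the number of tested genes in each.

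Kdr was read with the other genes of the VEGF pathway, in which hepatocytes supply most of the VEGF-A. Of 8 tested ligands and receptors, some of which are also in the endothelial lists and 1 of which is Kdr itself, 7 were fitted lower with Y67F-FXR and the median was -0.27 (log2 fold change), against 48.0% fitted lower and a median of 0.012 over all tested genes. None was called by edgeR or DESeq2, and 1 of the 8 (Flt4, given above) had an unadjusted p under 0.05 with either tool. Vegfa, the VEGF-A ligand gene, had 124, 130 and 143 CPM in FXR-WT and 124, 98.8 and 113 CPM in Y67F-FXR livers, a log2 fold change of -0.24 (edgeR quasi-likelihood Benjamini-Hochberg adjusted p = 0.479). Nrp1, which encodes the co-receptor neuropilin-1, was at -0.34 on the log2 scale (adjusted p = 0.404 from the same test) and at -0.21 without FXR-WT replicate 3. Its exons share bases with Mir1903, and reads on both were not counted. Pgf, placental growth factor, did not pass the filter.

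Bmp2 was read with the BMP pathway, from its ligands to its hepatocyte targets. The ligand Bmp6 had 4.41 ± 0.891 CPM in FXR-WT and 4.60 ± 1.93 CPM in Y67F-FXR livers (SD, n = 3 each). Hamp, the hepcidin gene, had 2011, 712 and 611 CPM in FXR-WT and 938, 1239 and 1243 CPM in Y67F-FXR livers, with FXR-WT livers at both ends of the range. Id1, a direct BMP target, had 18.9, 9.84 and 8.85 CPM in FXR-WT and 8.06, 16.4 and 12.8 CPM in Y67F-FXR livers, which overlapped. Id3, another direct target, had 61.2, 40.5 and 41.9 CPM in FXR-WT and 22.1, 37.2 and 40.0 CPM in Y67F-FXR livers, a log2 fold change of -0.53 (edgeR quasi-likelihood Benjamini-Hochberg adjusted p = 0.423) with groups apart, and leaving out a liver gave -0.68 to -0.31. FXR-WT replicate 1 was the highest liver for Hamp, Id1 and Id3 and the lowest for Bmp2, and these genes and Bmp6 were singled out after their values were seen.

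The list median of this pathway was 0.037 (log2 fold change), and it ran from -0.042 to 0.047 when a liver was left out. Of the 19 tested genes, 11 were fitted higher and 8 lower. Groups were apart in 4 of them, 2 lower and 2 higher, against 20.6% of all tested genes. None was called by edgeR, 3 had an unadjusted p under 0.05 (15.8%, against 13.4% of all tested genes), and DESeq2 called 1, Atoh8, among 431 calls over all genes. Atoh8, a transcription factor gene that responds to BMP, had 13.9, 17.3 and 11.7 CPM in FXR-WT and 19.2, 26.5 and 27.6 CPM in Y67F-FXR livers, a log2 fold change of 0.78, and the Benjamini-Hochberg adjusted p was 0.136 in edgeR and 0.0215 in DESeq2. Tmprss6, the protease that restrains hepcidin, and Smad7, an inhibitor of the pathway, had log2 fold changes of 0.34 and 0.42 (edgeR quasi-likelihood adjusted p = 0.251 and 0.369).

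Other cells of the liver were measured in the same libraries. The 13 Kupffer cell markers were at a median of 0.11 (log2 fold change) with 0 calls by edgeR or DESeq2 and 0 unadjusted p under 0.05. Marco, a macrophage scavenger receptor, had 13.6, 8.63 and 5.40 CPM in FXR-WT and 6.85, 62.2 and 16.5 CPM in Y67F-FXR livers, and its log2 fold change of 1.63 was 0.33 without Y67F-FXR replicate 2. The list median was -0.21 without that liver and 0.35 without Y67F-FXR replicate 1. Cd163 and Cd5l, other macrophage genes, had log2 fold changes of 0.23 and 0.37 and overlapping groups. These were 0.096 and -0.16 without Y67F-FXR replicate 2, and 0.37 and 0.67 without Y67F-FXR replicate 1.

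Of the 11 stellate cell markers 8 were fitted lower and the median was -0.28 (log2 fold change), which was -0.15 without FXR-WT replicate 1. An unadjusted p under 0.05 and groups apart were each found in 27.3% of them, all lower, against 13.4% and 20.6% of all tested genes. Their summed level was 339 to 424 CPM in FXR-WT and 325 to 381 CPM in Y67F-FXR livers. Lrat, which stores retinol as esters in stellate cells and is low in other liver cells, had 18.7, 13.1 and 17.9 CPM in FXR-WT and 8.50, 5.78 and 8.11 CPM in Y67F-FXR livers. The fitted log2 difference was -1.15 (edgeR quasi-likelihood adjusted p = 0.0540), just outside the threshold, and DESeq2 called it (adjusted p = 0.000104). Acta2, smooth muscle actin, had 9.87, 1.60 and 1.55 CPM in FXR-WT and 0.826, 1.58 and 0.954 CPM in Y67F-FXR livers, so FXR-WT replicate 1, the liver with the highest Lyve1, was also the highest for Acta2. The log2 fold change of Acta2 was -1.95 with that liver and -0.50 without it. Col1a1, a collagen gene, had a log2 fold change of -0.77 (edgeR quasi-likelihood adjusted p = 0.285). The part of stellate cells in the Lyve1 values was not tested.

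The remaining lists covered bile ducts, blood cells and hepatocytes. The 5 cholangiocyte markers were at a median of 0.047 (log2 fold change) and included Krt19, a bile duct keratin, at -0.80 with overlapping groups, Krt7 at 0.36 and Epcam at 0.30. Leaving out a liver gave 0.0053 to 0.26 for that median, -1.19 to -0.50 for Krt19, 0.19 to 0.46 for Krt7 and 0.16 to 0.51 for Epcam. The B cell markers Cd79b and Cd79a, subunits of the antigen receptor complex, had log2 fold changes of 0.15 and -0.11, which were -0.43 and -0.55 without Y67F-FXR replicate 2. The 3 tested platelet markers, Gp1ba, Itga2b and Pf4, had 0.71, 0.29 and -0.45. Leaving out a liver gave 0.38 to 1.11, -0.11 to 0.48 and -0.97 to -0.10 for them. Of the red blood cell markers, Alas2 had a log2 fold change of 0.16 (0.030 without Y67F-FXR replicate 3), and the 4 globin genes were listed at 0 in all 6 livers. Each globin gene shares exon bases with its copy, and reads on both copies were not counted. The median over 8 hepatocyte markers was -0.0013 (log2 fold change) and ran from -0.030 to 0.063 when a liver was left out. Fgb, a fibrinogen chain gene, was at -0.53 on the log2 scale (adjusted p = 0.184 in edgeR and 0.0442 in DESeq2, under the fold minimum) with groups apart. Ttr and Apob had log2 fold changes of 0.19 and -0.12. These were 0.072 and 0.026 without Y67F-FXR replicate 2, and 0.30 and -0.28 without Y67F-FXR replicate 1.

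The 5 tested genes outside the endothelial lists whose profile over the 6 livers was closest to the mean profile of the 10 markers were Supt7l, Baat, Mastl, Haus5 and Tmem87a, at root mean square distances of 0.019, 0.021, 0.023, 0.034 and 0.035 on the log2 scale. That mean profile stayed between -0.10 and 0.11 and was drawn by Lyve1. In FXR-WT replicate 1 the mean was 0.057 with Lyve1 at 0.97. The median of the 10 markers in that liver was -0.091, and 6 of them lay below their gene means.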

How the data were processed

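RNA from 6 livers, 3 FXR-WT and 3 Y67F-FXR by their labels, was sequenced. The authors deposited raw counts of reads per gene on mm9, with STAR as aligner and featureCounts 1.4.6-p4 as counter per the file headers and processing notes. Counting ignored strand and took each mate of a pair as its own read. Reads with several alignments or genes were dropped, which lowers genes with overlapping neighbours or near-identical copies. A deposited comparison table holds the authors' log2 fold changes, mean log2 CPM, p-values and FDR, and it was not used.

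The 10 markers and all gene lists were chosen with earlier results of these data known. Counts were filtered with filterByExpr, scaled with TMM factors and fitted with edgeR 4.0.16 in R 4.3.3 (glmQLFit and glmQLFTest, group as the only term), with Benjamini-Hochberg adjustment over 12453 genes and calls at adjusted p under 0.05 and fold over 1.5. The steps were tested on simulated data. Intervals are 95% intervals from the fit. CPM levels use TMM-scaled library sizes, and log2 deviations use a prior count of 2. RPKM divides these by exon length.

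All 10 markers were named, and of each other list the 3 genes with the smallest unadjusted p, unless genes passed the adjusted threshold. The 5 genes nearest to the mean marker profile were named too. Alternatives were library totals, RLE size factors, DESeq2 1.42.0, no filter, 1 CPM in 3 libraries, a replicate block, gene length offsets (loess span 0.3) and leaving out each liver. Tf was matched as Trf. A B cell marker is not reported here, nor are sums over that list. Coordinates are those of the count files, since the reference genome given was of another build.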

Additional observations from a re-analysis of the deposited data

How the results depend on the processing

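Of all tested genes, 121 were called (68 higher, 53 lower) by edgeR's quasi-likelihood test, against 431 with DESeq2, 242 with gene length offsets, 8 with the replicate block and 9 to 66 when a liver was left out. Library totals gave 120 calls, split into 52 higher and 68 lower. No marker was called under any of the 13 alternatives. Of 130 marker values under alternatives, 10 changed sign. With library totals Stab1 was at -0.020 and Pecam1 at -0.056 on the log2 scale, and leaving out livers gave -0.019 to 0.14 for Stab1, -0.10 to 0.19 for Pecam1, -0.26 to 0.0018 for Kdr, -0.13 to 0.15 for Bmp2, -1.14 to -0.56 for Lyve1, 0.067 to 0.22 for Stab2, -0.22 to -0.038 for Clec4g, 0.055 to 0.23 for Fcgr2b, 0.059 to 0.21 for Oit3 and 0.12 to 0.18 for Mrc1. The median over the markers was -0.038 with library totals, where the median of all genes was -0.057, and ran from -0.039 (without FXR-WT replicate 3) to 0.091 (without FXR-WT replicate 2) when a liver was left out. The other lists had 0 calls by edgeR, 1 call (Lrat) with RLE size factors (edgeR adjusted p = 0.0498), with no filter and with gene length offsets, and 2 with DESeq2 (Lrat and Atoh8). Across genes, deviations from the group mean correlated at -0.52, -0.080 and 0.12 between same-numbered livers, and at -0.59 to 0.58 between differently numbered ones. These values do not tell whether the replicate numbers pair the livers. The replicate block put Lyve1 at -0.82 with an edgeR adjusted p of 0.403 and the marker median at 0.041. The causes of these changes were not tested. The spread between 3 livers a group sets the width of the intervals given.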
